A study of Mus musculus with 556 samples.

Results

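The 9 mouse glutamate receptor genes Gria1, Gria2, Gria4, Grik1, Grik2, Grid1, Grin2a, Grin2b and Grm7 were followed for contact with the nuclear lamina in single oocytes, embryo cells, isolated pronuclei and embryonic stem (ES) cells. Each gene was represented by the 100 kb bins of the deposited table that it touches from its annotated start to its end in GRCm38/mm10. That gave 52 of the 24022 autosomal bins with a value, and 9 of 46654 annotated genes with at least 1 such bin. The set was chosen by the OE of Gria4 being lower in paternal than in maternal pronuclei, taken here as the pronuclei without Kdm5b, and the others are members of its family. For pronuclei without Kdm5b the values of all 9 genes are therefore a description, with no test.

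Glutamate is the main excitatory transmitter of the brain. AMPA receptors, built from Gria subunits, carry most of the fast current at its synapses, and NMDA receptors, with Grin subunits, admit calcium when the membrane is already depolarized. Kainate receptors (Grik) and delta receptors (Grid) belong to the same ion channel family, while metabotropic receptors (Grm) signal through G proteins. The lamina is the protein mesh under the inner nuclear membrane, and chromatin held there is mostly gene-poor and little transcribed.

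The assay was DamID. Dam, a bacterial enzyme that methylates adenine in the letters GATC, was fused to lamin B1, so that methylated and sequenced DNA marks contact with the lamina. Dam alone, which methylates accessible chromatin, was the control. Values are the ratio of observed to expected reads (OE) as the authors deposited it, so that 1 is the number of reads expected for a bin. A gene's OE in a cell is the mean over its bins, and a gene was counted as in contact in a cell at an OE of at least 1.

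Pronuclei carry the strain label C57BL/6 and received Dam-lamin B1; the parents were told apart by pronuclear size and the position of the second polar body. With wild-type Kdm5b, a histone demethylase, there were 19 paternal and 19 maternal pronuclei, with mutant Kdm5b 6 and 13, and without Kdm5b 15 and 10. Kdm5b mRNA was injected at 2 µg/µl with 5 ng/µl of Dam-lamin B1 mRNA, and the labels do not say what the mutation changes. Whole zygotes, labelled C57BL/6 female by CAST/EiJ male, received Dam-lamin B1 (19) or Dam (46), Dam-lamin B1 with wild-type (14) or mutant (9) Kdm5b, or with wild-type (12) or mutant (10) Kdm4d, another histone demethylase. Further zygotes with Dam-lamin B1 are labelled aphidicolin (9), an inhibitor of DNA replication, or DMSO (11), its solvent, although the protocol describes that treatment for 2-cell embryos. The protocol gives the females as crosses of CBA and C57BL/6J, which differs from the strain label. The stages with Dam-lamin B1 were oocytes (56), embryos of the CAST/EiJ cross at the 2-cell (47) and 8-cell (41) stage, and ES cells (10). The ES cells came from a 129/Sv by CAST/EiJ cross, so that they differ from the embryos in strain as well as stage. Oocytes labelled 20 ng (17) and 50 ng (23) formed groups of their own. With Dam alone there were 43 oocytes, 45 cells of 2-cell and 4 of 8-cell embryos. In oocytes and embryos the proteins came from injected mRNA and were kept low by auxin except for 6 to 8 h. The Dam-lamin B1 dose rose with the stage: 5 ng/µl was injected to mark oocytes or zygotes, 10 ng/µl to mark 2-cell and 20 ng/µl to mark 8-cell embryos, so that stage and dose cannot be told apart. Dam alone was injected at 20 ng/µl to mark oocytes or zygotes and at 40 ng/µl to mark 2-cell and 8-cell embryos, so that Dam-lamin B1 and Dam also differ in dose at each stage. The protocols used here name no dose for pronuclei without Kdm5b.

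The non-zero OE values were whole multiples of the worth of 1 read in their bin within 0.02 reads, which gave 23563 to 1091058 reads per cell with a median of 71769.5, up to a common factor. Mean OE over all bins lay between 0.885 and 1.06 in every group. Paternal pronuclei were deeper than maternal ones, with median reads of 144974 against 83404.5 without Kdm5b, 104964 against 74908 with wild-type and 103856 against 52538 with mutant Kdm5b. Each pronucleus was set against the paternal minus maternal profile of the others across bins. All 40 paternal and 41 of 42 maternal pronuclei fell on the side of their label, and 1 maternal pronucleus without Kdm5b did not. With wild-type Kdm5b, the pronuclei numbered 14 to 19 stood apart from those numbered 1 to 13. Their LAD contrast, the log2 ratio between the mean OE of bins inside and outside lamina-associated domains (LADs), lay between -0.51 and -0.18 against -0.15 and 0.18 in paternal and between -0.23 and 0.05 against 0.09 and 0.78 in maternal pronuclei. The labels name no batch, and results of this set are also given without these 12 pronuclei, an alternative chosen after seeing the data. The labels name no female or day, so p-values measure the spread between these pronuclei and zygotes only.

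The 9 genes are long, from 122.8 kb for Gria2 to 921.9 kb for Grm7, where the median protein-coding gene has 17.6 kb. Of their 52 bins, 42 (80.8%) lay in both of the authors' lists of LADs, those of the inner cell mass (ICM) and the trophectoderm (TE) of the blastocyst, against 50.3% of all bins. Every bin of Gria1, Gria4, Grik1, Grik2, Grin2a and Grin2b was in both lists. The 3 bins of Gria2 were in a TE LAD only, and 2 of the 8 bins of Grid1 in an ICM LAD only. Grm7 crossed a border, with 5 of its 10 bins in both lists, 2 in an ICM LAD only and 3 in neither.

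Gria4 encodes the AMPA receptor subunit GluA4, lies at chr9:4417893-4796234 on the minus strand and touches 4 bins. The 250 bases before its start, chr9:4796235-4796484, lie in the last of these bins and outside the annotated gene. They are shown because Gria4 carries the parental difference and because Dam marks DNA only at GATC. The sequence is RefSeq's for GRCm38.p6, on the gene's strand, with CpG pairs in capitals.
Gria4: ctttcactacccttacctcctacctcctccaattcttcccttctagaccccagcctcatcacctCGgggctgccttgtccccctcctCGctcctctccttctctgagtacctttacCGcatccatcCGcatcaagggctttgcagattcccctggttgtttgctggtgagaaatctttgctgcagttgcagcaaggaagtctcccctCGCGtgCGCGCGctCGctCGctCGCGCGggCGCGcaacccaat
It holds 16 CpG pairs and 0 GATC, a motif that reads the same on both strands. Over the same 250 bases of the 32851 promoters in the table, 41.9% hold GATC, the median holds 6 CpG pairs and 37.8% hold at least 10. The table held 4 of the 9 genes.

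The first comparison asked whether the receptor genes touch the lamina alike in both parental genomes. Gria4 had less signal in paternal than in maternal pronuclei, Gria1 had more, and both differences passed the test in pronuclei with wild-type Kdm5b. Leaving out the pronuclei numbered 14 to 19, Gria4 still passed and Gria1 did not. Those pronuclei were set apart by LAD contrast, and every bin of Gria4 lies in both LAD lists. Leaving them out is therefore no independent check. In those pronuclei alone Gria4 differed by 0.03 (limma adjusted p = 0.977). At equal reads neither gene passed limma's test (adjusted p = 0.215 for Gria4 and 0.0502 for Gria1). Without Kdm5b, OE of Gria4 ran from 0 over a median of 0.355 to 2.74 in 15 paternal pronuclei and from 0.530 over a median of 2.06 to 4.49 in 10 maternal ones. Most paternal pronuclei were low and most maternal ones high, with overlap. The means were 0.711 ± 0.778 and 2.18 ± 1.24 (SD), and 14 of 15 paternal pronuclei lay below the maternal mean. In contact were 5 of 15 paternal (33.3%, 11.8 to 61.6%) and 8 of 10 maternal pronuclei (80.0%, 44.4 to 97.5%; exact 95% intervals, which cover counting error only). Of single bins over the genome, 38.8% in these paternal and 35.4% in these maternal pronuclei had an OE of at least 1. Over all genes, 0.386% were called higher and 0.0689% lower here. Without the maternal pronucleus that went against its label, in which Gria4 had 0.747, the maternal mean was 2.34 ± 1.20 (n = 9), an alternative chosen after seeing the data. That of Gria1 was then 0.282 ± 0.209, that of Gria2 0.586 ± 0.389, and those of the other 6 genes were between 0.962 and 1.06 times as high as with it. Leaving out a maternal pronucleus for a profile on the paternal side favours a wider parental gap, so these values are no independent check. The median number of reads behind a value was 10 paternal and 29 maternal.

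**Figure D1:**
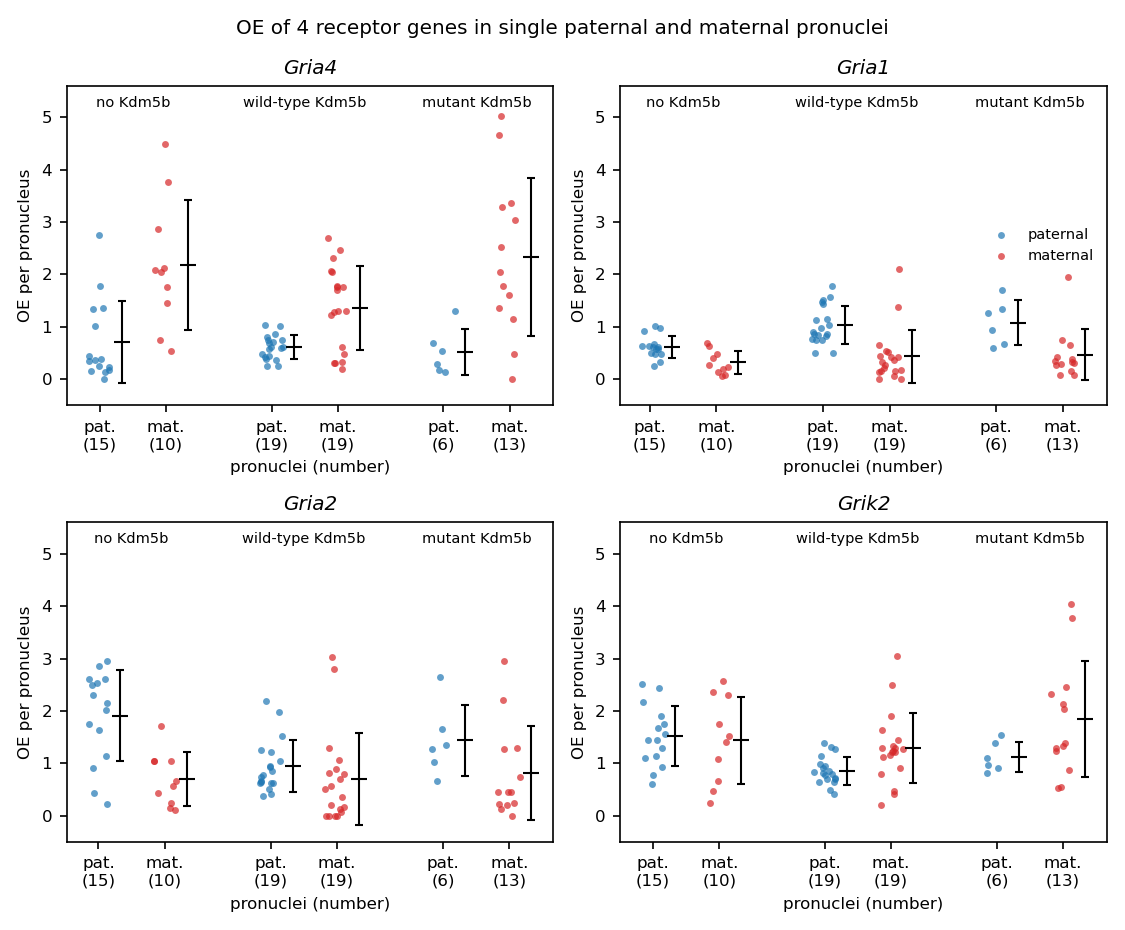
OE of Gria4, Gria1, Gria2 and Grik2 in each pronucleus (points), with mean and SD beside them, by parent and Kdm5b. Paternal pronuclei are lower on average for Gria4 and higher for Gria1 in all 3 sets, and the groups overlap.

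Pronuclei with Kdm5b are other samples than those without, which are taken here as the ones that chose Gria4. The choice as stated names no set, so the tests that follow rest on that reading. With wild-type Kdm5b, OE of Gria4 ran from 0.240 over a median of 0.616 to 1.02 in paternal pronuclei and from 0.190 over a median of 1.30 to 2.69 in maternal ones. All paternal values were near or below 1, while the maternal values spread across both sides of it, and 5 of the 6 lowest maternal values came from pronuclei numbered 14 to 19. The means were 0.608 ± 0.230 and 1.36 ± 0.800 (SD, n = 19 each), with 19 of 19 paternal pronuclei below the maternal mean. The difference in log2(OE + 0.5) was -0.63 (95% interval -1.03 to -0.22, limma, Benjamini-Hochberg adjusted over all genes, p = 0.0282). Of all genes, 0.853% were called lower and 13.4% higher in paternal pronuclei. The median gene was 0.19 higher, and Gria4 stood at -0.81 relative to it. In contact were 2 of 19 paternal and 13 of 19 maternal pronuclei, a difference that passed Fisher's exact test over all genes (adjusted p = 0.0341). Of single bins over the genome, 46.5% in these paternal and 39.4% in these maternal pronuclei had an OE of at least 1. The LAD contrast of the paternal pronuclei was -0.09 ± 0.21, so their bins inside LADs had on average no higher OE. Contact counts of these paternal pronuclei, here and below, therefore mean only an OE of at least 1. With every pronucleus thinned to 32493 reads the difference was -0.56 and did not pass (adjusted p = 0.215), and over 8 alternatives the adjusted p ran from 0.0104 to 0.977. Without pronuclei 14 to 19 the means were 0.650 ± 0.240 paternal and 1.75 ± 0.624 maternal (n = 13 each), and the difference was -0.93 (limma adjusted p = 0.0104). In pronuclei 14 to 19 alone they were 0.519 ± 0.195 and 0.532 ± 0.394 (n = 6 each), with a difference of 0.03 (-0.65 to 0.71, limma adjusted p = 0.977). Whether the difference itself differs between the 2 runs of numbers was not tested.

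With mutant Kdm5b, Gria4 ran from 0.130 over a median of 0.408 to 1.30 in 6 paternal pronuclei and from 0 over a median of 2.05 to 5.03 in 13 maternal ones. The means were 0.520 ± 0.439 and 2.33 ± 1.51, and 6 of 6 paternal pronuclei lay below the maternal mean. The difference of -1.33 (-2.24 to -0.41) did not pass limma's test (adjusted p = 0.188). No gene was called lower here (0% of 46209), while 0.394% were called higher.

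The low paternal signal reached past Gria4. The 4 bins of Gria4 and the 10 bins on each side were compared. With wild-type and with mutant Kdm5b, the paternal mean was below the maternal one in 24 of 24 bins. Of all bins, 44.8% and 42.5% were lower in these sets. Without Kdm5b it was also lower in 24 of 24 bins (44% of all bins). That is a description only, since this set is taken to have chosen Gria4. The run of bins with a lower paternal mean in all 3 sets spanned chr9:3300001-6200000, which is 29 bins or 2.9 Mb. It was extended outward from Gria4's own bins and uses the set without Kdm5b, so its length is a description only. Over the genome, 16.9% of bins were lower in all 3 sets and 28.3% higher. The first bin of chromosome 9 with a value starts at 3000001, so the run begins near that end of the chromosome. The run holds 11 protein-coding genes, among them Casp1, Casp4 and Casp12, which encode inflammatory caspases, and the growth factor gene Pdgfd. Neighbouring bins are not independent, and the choice of Gria4 is taken to rest on the set without Kdm5b. In the 1 Mb before Gria4's lower coordinate, mean OE was 0.760 paternal and 1.26 maternal with wild-type Kdm5b, and 0.715 and 1.49 in the 1 Mb after its upper coordinate. The bin that holds the gene's start had 0.582 ± 0.470 in paternal and 1.38 ± 0.925 in maternal pronuclei of that set.

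**Figure D2:**
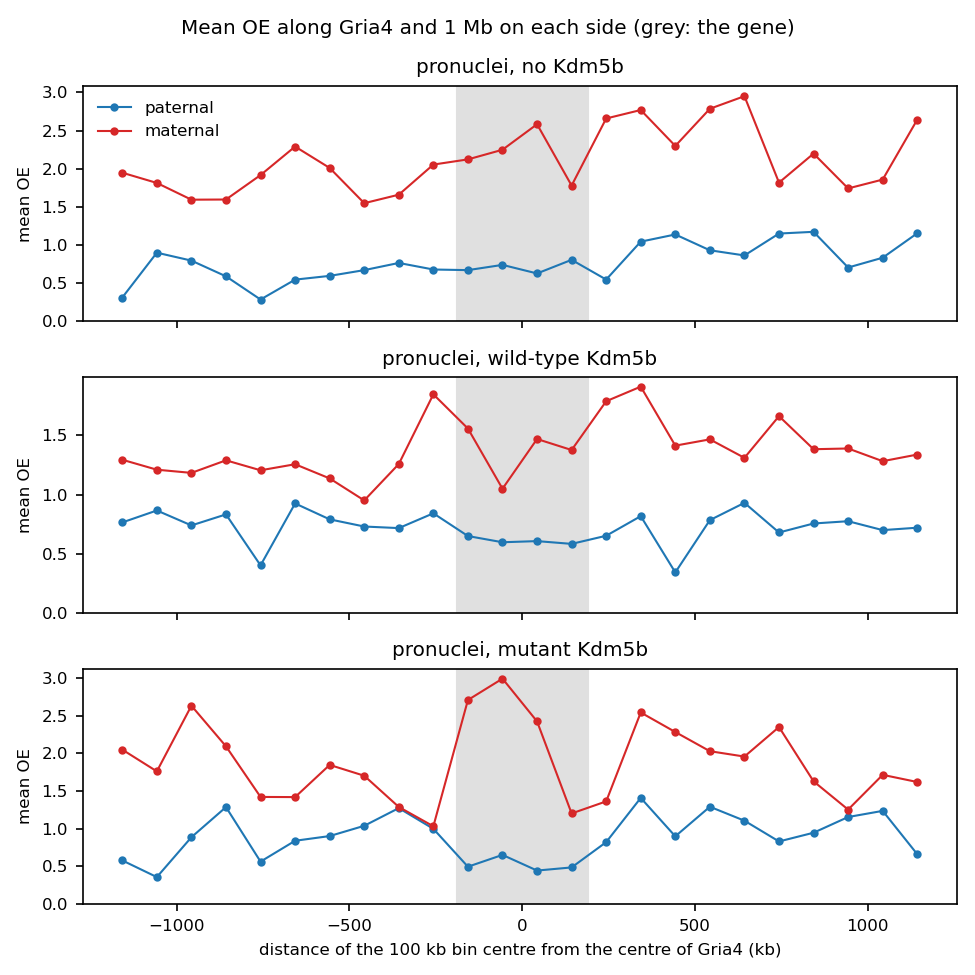
Mean OE of paternal and maternal pronuclei per 100 kb bin against the distance from the centre of Gria4, in 3 sets. The paternal mean stays below the maternal one in all 24 bins of each set.

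Gria1 encodes GluA1, a main AMPA subunit of the forebrain. Without Kdm5b it averaged 0.615 ± 0.217 in paternal and 0.317 ± 0.225 in maternal pronuclei. With wild-type Kdm5b, values ran from 0.491 over a median of 0.900 to 1.78 in paternal pronuclei and from 0 over a median of 0.329 to 2.09 in maternal ones. Every paternal pronucleus exceeded the maternal mean (19 of 19), although the highest maternal value was above all paternal ones. The means were 1.03 ± 0.368 and 0.438 ± 0.508, a difference of 0.81 (0.41 to 1.20, limma adjusted p = 0.00288) that stood 0.62 above the median gene. At equal reads it was 0.80 with an adjusted p of 0.0502, and contact, in 8 of 19 paternal and 2 of 19 maternal pronuclei, did not pass Fisher's exact test over all genes (adjusted p = 0.381). Without pronuclei 14 to 19 the difference was 0.68 and did not pass (adjusted p = 0.0936), and in those 12 alone it was 1.08 (adjusted p = 0.0882), in the same direction. With mutant Kdm5b the means were 1.08 ± 0.428 and 0.461 ± 0.489 and the difference of 0.79 had an adjusted p of 0.366 in limma. All 4 bins of Gria1 had the higher paternal mean in each set, within a run of 10 such bins at chr11:56500001-57500000.

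Gria2 encodes GluA2, the subunit that makes AMPA receptors nearly impermeable to calcium. Without Kdm5b its OE ran from 0.224 over a median of 2.15 to 2.96 in paternal pronuclei and from 0.0970 over a median of 0.616 to 1.71 in maternal ones. 13 of 15 paternal pronuclei lay above the maternal mean, with means of 1.91 ± 0.872 and 0.698 ± 0.510. With wild-type Kdm5b the means were 0.942 ± 0.500 and 0.703 ± 0.874, and the difference of 0.47 had a limma adjusted p of 0.174. Counting only the middle bin, the only one that the gene covers by at least 50%, it was 0.84 and passed (limma adjusted p = 0.0157). That bin had means of 1.15 in paternal and 0.477 in maternal pronuclei. Of the 3 bins, 2 had the higher paternal mean in that set. With mutant Kdm5b the means were 1.43 ± 0.676 and 0.811 ± 0.891 (adjusted p = 0.482).

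The kainate subunit genes are Grik1 (GluK1) and Grik2 (GluK2). Grik1 averaged 0.976 ± 0.776 in paternal and 0.936 ± 0.555 in maternal pronuclei without Kdm5b, and 1.13 ± 0.531 and 1.27 ± 0.694 with wild-type Kdm5b. Grik2 was above 1 in both parents without Kdm5b, with 1.51 ± 0.573 paternal and 1.43 ± 0.824 maternal. With wild-type Kdm5b it had 0.858 ± 0.267 and 1.29 ± 0.672, and 17 of 19 paternal pronuclei lay below the maternal mean. Its 8 bins all had the lower paternal mean with wild-type and with mutant Kdm5b, yet the differences of -0.32 (limma adjusted p = 0.246) and -0.41 (adjusted p = 0.773) did not pass.

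Grid1, the gene of the delta receptor GluD1, had 1.06 ± 0.397 in paternal and 1.15 ± 0.657 in maternal pronuclei with wild-type Kdm5b. Grin2a and Grin2b encode the NMDA subunits GluN2A and GluN2B. Grin2a had 0.955 ± 0.255 in paternal and 0.804 ± 0.487 in maternal pronuclei of that set. Grin2b, which without Kdm5b had the lowest paternal mean of the 9 genes (0.498 ± 0.343, against 0.427 ± 0.213 maternal), had 0.939 ± 0.315 and 0.866 ± 0.547 with wild-type Kdm5b. Grm7, the gene of mGlu7, a receptor that dampens transmitter release, had 0.933 ± 0.278 and 0.679 ± 0.601, and its difference of 0.41 did not pass (limma adjusted p = 0.165). In all, 1 of 9 genes was called higher and 1 lower with wild-type Kdm5b, and 0 with mutant Kdm5b, where 2 had an unadjusted p under 0.05 in limma and Fisher's exact test also called 0. The 9 differences had a median of 0.16 in each of these sets, where the median of all genes was 0.19 and 0.23.

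**Figure D3:**
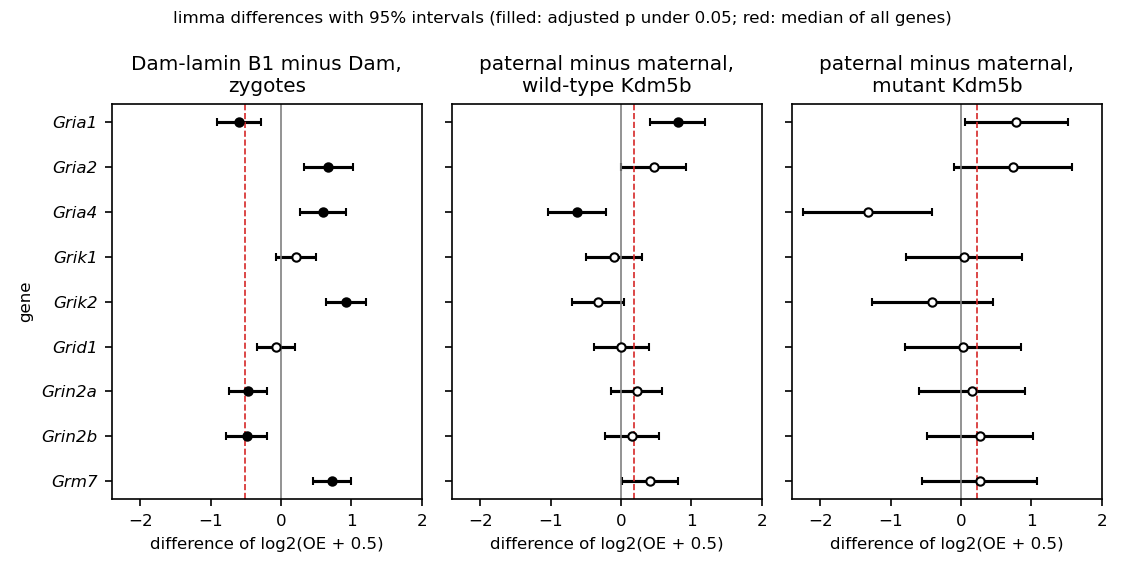
Differences of log2(OE + 0.5) from limma with 95% intervals for the 9 genes in 3 comparisons, filled where the adjusted p is under 0.05, with the median of all genes as a dashed line. Grik2 has the largest positive difference of the 9 for Dam-lamin B1 against Dam in zygotes (0.92), and Gria4 and Gria1 pass in opposite directions between the parents with wild-type Kdm5b.

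Other genes of the glutamate synapse were taken from lists of receptors, auxiliary subunits and scaffolds, and transporters. With wild-type Kdm5b, 5 of 16 other receptor genes were called higher and 0 lower in paternal pronuclei, beside the 13.4% of all genes called higher. The largest differences were those of Grik3 (1.11, limma adjusted p = 1.13e-05), Grik5 (0.92, adjusted p = 0.00533) and Grm2 (0.87, adjusted p = 0.00618). Grik3, a further kainate subunit gene, had 1.14 ± 0.405 in paternal and 0.256 ± 0.154 in maternal pronuclei. Of 15 auxiliary and scaffold genes 4 were called higher and 0 lower, led by Gsg1l (0.94), Cnih3 (0.89) and Cacng2 (0.84), whose products bind AMPA receptors. Of 7 transporter genes 1 was called higher and 0 lower, Slc1a2 (1.16), which encodes the main glial glutamate transporter. Without pronuclei 14 to 19 the 3 lists had 4, 3 and 1 genes called higher and 0 lower. With mutant Kdm5b limma called 0 genes of these 3 lists, with an unadjusted p under 0.05 for 1 receptor, 0 auxiliary and scaffold and 1 transporter gene. Every bin lay outside both LAD lists in 10 of the 16 other receptor genes and in 0 of the 9.

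The second comparison asked whether contact of these genes differs between wild-type and mutant Kdm5b. 0 of 9 genes passed limma's test in paternal pronuclei, maternal pronuclei or whole zygotes, where 0.131%, 0.0173% and 0.546% of all genes were called. Fisher's exact test on contact also called 0, and Gria2 in zygotes was the 1 member with an unadjusted p under 0.05 in limma. In paternal pronuclei the differences ran from -0.43 to 0.21 with intervals within -0.93 to 0.74, in maternal ones from -0.51 to 0.29 within -1.13 to 0.83, and in zygotes from -0.56 to 0.37 within -1.09 to 0.89. Gria2 in zygotes had 0.805 ± 0.508 with wild-type (n = 14) and 1.42 ± 0.695 with mutant Kdm5b (n = 9), a difference of -0.56 (adjusted p = 0.196). Over its middle bin, the only one covered by at least 50%, it was 0.11, in the other direction. Gria4 in maternal pronuclei had 1.36 ± 0.800 with wild-type and 2.33 ± 1.51 with mutant Kdm5b (-0.51, adjusted p = 0.489). Without wild-type pronuclei 14 to 19 that difference was -0.16, and 0 of 9 genes passed in either parent, with 0 at an unadjusted p under 0.05 in limma.

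The paternal minus maternal difference of Gria4 was 0.70 less negative with wild-type than with mutant Kdm5b (95% interval -0.13 to 1.53), which did not pass limma's interaction test (adjusted p = 0.888). Without wild-type pronuclei 14 to 19 it was 0.40 (-0.50 to 1.30). In that test 0 of 46463 genes passed, and 2659 had an unadjusted p under 0.05. The median gene was higher with wild-type Kdm5b by 0.19 in paternal pronuclei, 0.19 in maternal pronuclei and 0.30 in zygotes. The log2 ratio between the mean OE of bins inside both LAD lists and that of bins outside both was -0.09 ± 0.21 in paternal pronuclei with wild-type and 0.54 ± 0.32 with mutant Kdm5b, and 0.28 ± 0.30 and 0.65 ± 0.29 in maternal ones. Its part in the values of single genes was not tested.

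The third comparison set Dam-lamin B1 against Dam in whole zygotes, to separate lamina contact from accessibility. Among the zygotes with Dam-lamin B1, numbers 4 to 12 had a LAD contrast of 0.30 to 0.57. Numbers 13 to 22 had 0.69 to 1.16, except number 18 with 0.40. Values of this group, here and across stages, pool these zygotes, and the part of this difference in them was not tested. Grik2, Grm7, Gria2 and Gria4 were higher with Dam-lamin B1, while Gria1, Grin2b and Grin2a were lower. Of all 46467 genes, 10.5% were called higher and 56.5% lower, against 4 and 3 of the 9. Grik2 ran from 0.438 over a median of 1.73 to 2.84 in 19 zygotes with Dam-lamin B1 and from 0.0550 over a median of 0.637 to 1.47 in 46 with Dam. Nearly all values with Dam-lamin B1 were high, and 18 of 19 exceeded the Dam mean. Its means were 1.66 ± 0.642 and 0.621 ± 0.292, a difference of 0.92 (0.64 to 1.21, limma adjusted p = 2.98e-07). Grm7 had 1.20 ± 0.564 and 0.485 ± 0.183 (0.72, adjusted p = 1.15e-05), with the higher mean in each of its 10 bins, inside LADs and outside. Gria2 had 1.56 ± 0.882 and 0.719 ± 0.449 (0.67, adjusted p = 0.00078).

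Gria4 ran from 0.0873 over a median of 1.06 to 2.84 with Dam-lamin B1 and from 0 over a median of 0.504 to 1.22 with Dam. The groups overlap at the low end, and 14 of 19 zygotes with Dam-lamin B1 lay above the Dam mean. The means were 1.15 ± 0.733 and 0.531 ± 0.294 (0.60, limma adjusted p = 0.00108), resting on medians of 6 and 8 reads. Gria1 had 0.482 ± 0.266 with Dam-lamin B1 and 1.04 ± 0.560 with Dam (-0.60, adjusted p = 0.00079). Grin2a had 0.677 ± 0.238 and 1.16 ± 0.517 (-0.47, adjusted p = 0.00220), and Grin2b 0.621 ± 0.264 and 1.10 ± 0.506 (-0.48, adjusted p = 0.00305). All bins of these 3 genes lie in LADs of the blastocyst. Relative to the median gene, at -0.51, they stood at -0.09, 0.05 and 0.03, close to a typical gene, while Grik2 stood at 1.44. Over bins the median difference was -0.25, and all 3 genes were below it. Grik1, with 1.23 ± 0.711 and 0.921 ± 0.363, and Grid1, with 1.03 ± 0.591 and 1.05 ± 0.368, did not pass.

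Of the other receptor genes 4 of 16 were called higher and 9 lower with Dam-lamin B1, with a median difference of -0.57. They were led by the NMDA subunit genes Grin2c (-1.22), Grin1 (-0.92) and Grin2d (-0.90). Grin1, which encodes the subunit every NMDA receptor contains, had 1.09 ± 0.519 with Dam-lamin B1 and 2.45 ± 1.02 with Dam. Of the auxiliary and scaffold genes 1 of 15 was called higher and 10 lower, led by Dlg4 (-1.03), Cnih3 (-0.95) and Cnih2 (-0.90). Dlg4 encodes PSD-95, a scaffold of the excitatory synapse. Of the transporter genes 0 of 7 were called higher and 4 lower, led by Slc17a7 (-0.90), Slc1a1 (-0.67) and Slc1a2 (-0.58).

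**Figure D4:**
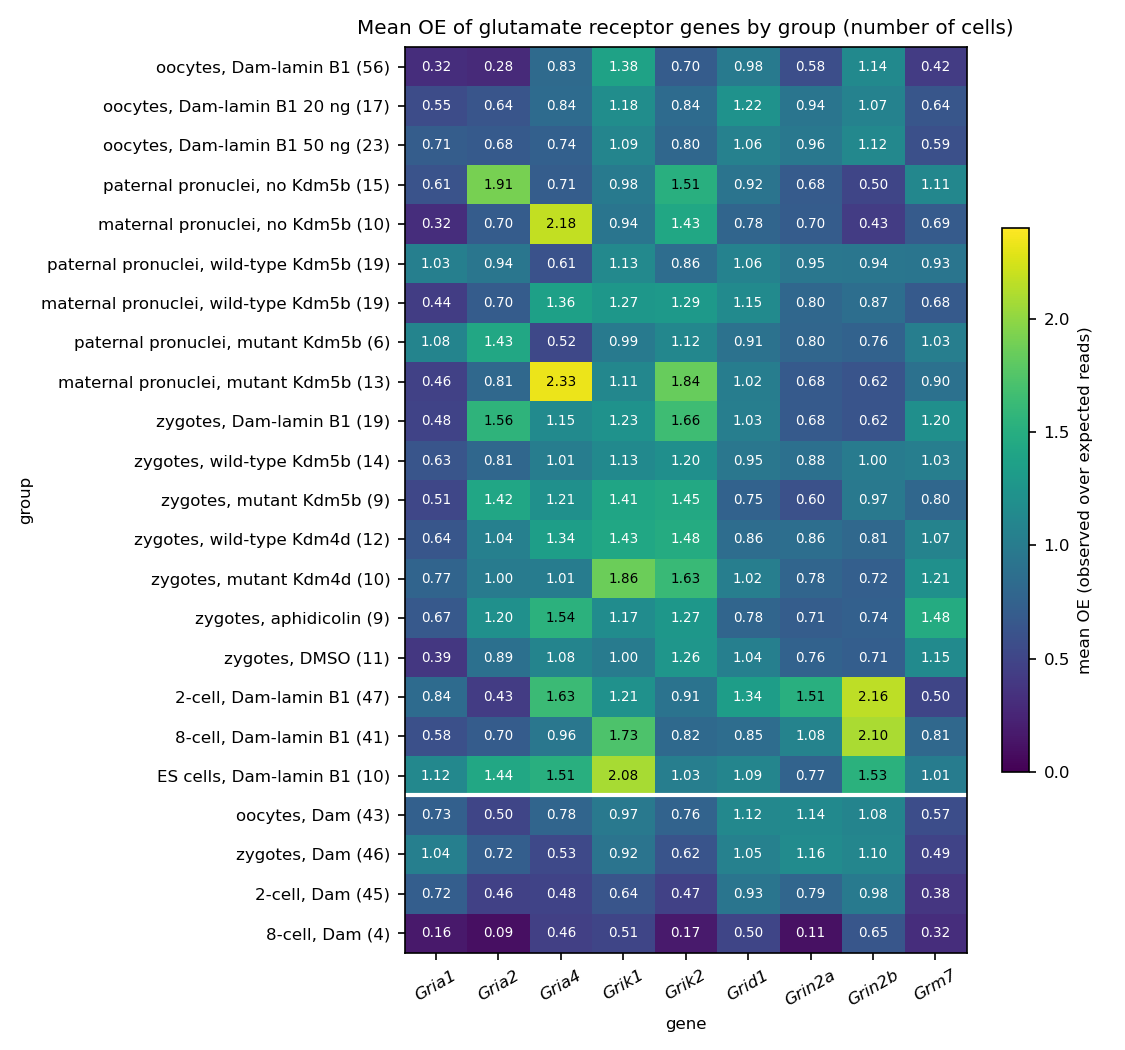
Mean OE of the 9 genes in 19 groups with Dam-lamin B1 and 4 with Dam (number of cells in brackets). Gria4 has its highest means in maternal pronuclei with mutant Kdm5b (2.33) and without Kdm5b (2.18), and Grin2b in 2-cell (2.16) and 8-cell embryos (2.10).

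Across stages the labels name no female, embryo or culture, so each group counts as 1 sample, the SD is that between its cells, and no test was made between stages. Among cells of 2-cell embryos with Dam-lamin B1, numbers 24 to 36 had a LAD contrast of -0.03 to 0.42. Numbers 4 to 23 had 0.63 to 1.38, and numbers 37 to 47 had 0.10 to 1.31. These runs leave out the cells of the group with higher numbers. With Dam, numbers 41 to 48 had -0.48 to 0.004 and numbers 4 to 40 had -1.72 to -0.75. All 2-cell values below pool every cell of their group, and the part of these differences in them was not tested. Grin2b had the highest means of the 9 genes in 2-cell and 8-cell embryos. Its mean OE with Dam-lamin B1 was 1.14 ± 0.757 in oocytes, 0.621 ± 0.264 in zygotes, 2.16 ± 1.41 in 2-cell embryos, 2.10 ± 0.873 in 8-cell embryos and 1.53 ± 1.20 in ES cells. In contact were 27 of 56 oocytes, 1 of 19 zygotes (5.26%, 0.133 to 26.0%, exact 95% interval), 42 of 47 cells of 2-cell embryos (89.4%, 76.9 to 96.5%), 39 of 41 of 8-cell embryos and 7 of 10 ES cells. The LAD contrast with Dam-lamin B1 was -0.17 ± 0.19 in oocytes, 0.64 ± 0.26 in zygotes, 0.77 ± 0.42 in 2-cell and 0.81 ± 0.43 in 8-cell embryos. In oocytes it was below 0, as with Dam alone (-0.45 ± 0.20). Counts of oocytes in contact, here and below, therefore mean only an OE of at least 1. Grin2a had 0.578 ± 0.322 in oocytes, 0.677 ± 0.238 in zygotes, 1.51 ± 0.997 in 2-cell embryos, 1.08 ± 0.651 in 8-cell embryos and 0.765 ± 0.456 in ES cells.

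Gria2, Grik2 and Grm7 had their highest stage mean in zygotes with Dam-lamin B1 alone. Gria2 had 0.283 ± 0.519 in oocytes, 1.56 ± 0.882 in zygotes, 0.428 ± 0.396 in 2-cell embryos, 0.702 ± 0.536 in 8-cell embryos and 1.44 ± 0.918 in ES cells. In the 6 other groups of zygotes with Dam-lamin B1, Gria2 had means from 0.805 to 1.42, all below that of ES cells. Grik2 had 0.699 ± 0.623 in oocytes, 1.66 ± 0.642 in zygotes, 0.913 ± 0.468 in 2-cell embryos, 0.819 ± 0.392 in 8-cell embryos and 1.03 ± 0.508 in ES cells. The means of Grik2 in the 6 other groups of zygotes, from 1.20 to 1.63, were above those of the other stages, while those of Grm7, from 0.801 to 1.48, lay on both sides of its ES cell mean of 1.01 ± 0.384. For Grm7, contact was seen in 2 of 56 oocytes, 10 of 19 zygotes, 4 of 47 cells of 2-cell and 8 of 41 of 8-cell embryos and 6 of 10 ES cells.

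Between oocytes and zygotes, the means of 3 of the 9 genes (Gria2, Grik2 and Grm7) differed by more than the larger SD over cells, where 11.8% of 1614 genes of at least 3 bins did. Between zygotes and 2-cell embryos 4 did (the same 3 and Grin2b), against 14.9% of those genes. Between 2-cell and 8-cell embryos, and between 8-cell embryos and ES cells, 0 did, against 11.5% and 10.8%. Gria4 stayed within that spread, with 0.828 ± 0.603 in oocytes, 1.15 ± 0.733 in zygotes, 1.63 ± 0.842 in 2-cell embryos, 0.956 ± 0.550 in 8-cell embryos and 1.51 ± 0.758 in ES cells. Grik1 was above 1 at every stage and had its highest mean, 2.08 ± 1.47, in ES cells. Gria1 had 0.316 ± 0.247 in oocytes, with 0 of 56 in contact (exact 95% upper limit 6.38%), and 1.12 ± 0.525 in ES cells. Grid1 had means between 0.854 ± 0.476 in 8-cell and 1.34 ± 0.729 in 2-cell embryos.

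**Figure D5:**
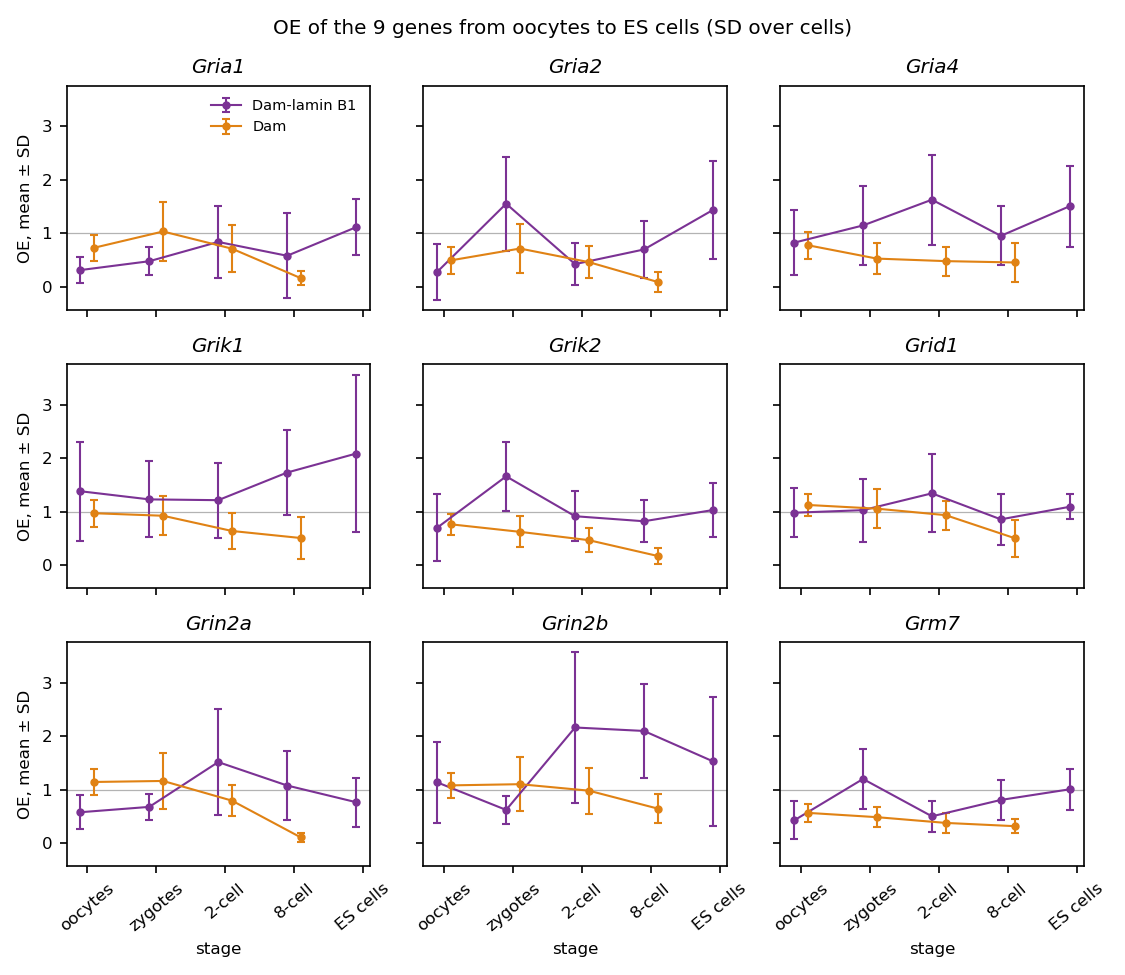
Mean OE of each gene by stage, with SD over cells, with Dam-lamin B1 and with Dam (no Dam group of ES cells), and a grey line at an OE of 1. With Dam-lamin B1, Grin2b has 0.621 in zygotes and 2.16 in 2-cell embryos, and Gria2, Grik2 and Grm7 are highest in zygotes.

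Set against Dam at the same stage, the mean with Dam-lamin B1 was the higher one for 3 of 9 genes in oocytes, 5 in zygotes, 8 in 2-cell and 9 in 8-cell embryos. Of all genes it was the higher one for 25.5% in oocytes, 23.8% in zygotes, 33.3% in 2-cell and 44.4% in 8-cell embryos. The LAD contrast with Dam was -0.45 ± 0.20, -0.74 ± 0.15, -0.92 ± 0.36 and -1.98 ± 0.20 in the same order, so that the Dam profile also changed with the stage, and its part in these counts was not tested. The ratio of means for Gria4 was 1.06 in oocytes, 2.17 in zygotes, 3.37 in 2-cell and 2.09 in 8-cell embryos. For Grin2b it was 1.05, 0.563, 2.20 and 3.25 in the same order of stages. Dam in 8-cell embryos was measured in 4 cells only.

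Between other treatments of zygotes 0 of 9 genes passed limma's test, and 0 had an unadjusted p under 0.05 in limma. For wild-type against mutant Kdm4d the differences ran from -0.34 to 0.29 with intervals within -0.88 to 0.83, and 0.0108% of all genes were called. For aphidicolin against DMSO they ran from -0.27 to 0.39 within -0.84 to 0.95, and 0.00867% were called. Gria4 had 1.34 ± 0.763 with wild-type (n = 12) and 1.01 ± 0.527 with mutant Kdm4d (n = 10), and 1.54 ± 1.10 with aphidicolin (n = 9) and 1.08 ± 0.748 with DMSO (n = 11).

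Over the 19 groups with Dam-lamin B1, Gria4 was highest in maternal pronuclei with mutant Kdm5b and without Kdm5b, and the 3 paternal groups had the 3 lowest means. In this order 0 neighbours differed by more than the larger of their SDs, which sorting 19 means makes likely. The count does not compare groups further apart. Among 1528 genes of at least 3 bins on other chromosomes, those whose 19 group means were most like Gria4's were Eml6 (r = 0.918), Gmds (0.871), the long non-coding RNA gene Gm26861 (0.838), Fhit (0.798) and Gpr158 (0.797). The groups share depth differences and parent of origin, and the likeness is a description. Eml6 had a mean OE of 0.597 in paternal and 1.91 in maternal pronuclei with mutant Kdm5b, 0.966 and 1.22 with wild-type Kdm5b, and 1.06 and 1.87 without Kdm5b. Among the 9 genes, r with Gria4 was 0.49 for Grik2 and between -0.32 and 0.01 for the others.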

How the data were processed

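Single-cell DamID reads were processed by the authors with cutadapt and BWA 0.7.12 to mm10, per the submitters' processing notes. The deposited unit is a ratio, observed over expected reads, for each 100 kb bin and cell; the sources used here do not say how the authors derived the expectation. Of 24639 bins, 617 had no value. Of 512 cells, 498 had a group; 14 with contradictory labels entered no comparison, and pooled samples are not analysed here.

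Bins above 0 in fewer than 3 cells of a comparison were left out. Differences of log2(OE + 0.5) were tested with limma 3.58.1 (R 4.3.3, trend) in 2-group fits, Benjamini-Hochberg adjusted over all genes and called under 0.05. Genes that share a bin share its value. The limma step was tested on simulated data. Intervals of shares are exact (Clopper-Pearson). Alternatives were a pseudocount of 1, no filter, bins covered by at least 50%, equal reads (whole reads, recovered in 23898 bins, thinned to the shallowest cell), Fisher's exact test on contact, contact at 1.5 and a replicate block. All 9 members are named; of each other list, the 3 called genes with the largest difference, of which 1 is not reported here. The members and lists were chosen with earlier results of these data known.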

Additional observations from a re-analysis of the deposited data

Results flagged for a closer look

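Among 63 sets of 4 to 10 cells (7 groups for each of the 9 genes), 6 held 1 cell far from the others by Dixon's test at the 95% level, where chance gives about 1 in 20. Gria2 had 0.376 in 1 cell of an 8-cell embryo with Dam (replicate 7), and the other 3 cells had 0. It had 3.72 in ES cell replicate 9, with 2.03 the next highest of 10. Grik1 had 2.18 in maternal pronucleus 10 without Kdm5b, with 1.28 next. Grin2a had 1.65 in paternal pronucleus 4 with mutant Kdm5b, with 0.81 the next of 6. Grin2b had 2.95 in zygote 8 with mutant Kdm5b, with 1.05 next of 9, and 1.38 in zygote 7 with aphidicolin, with 0.885 next of 9.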

How the results depend on the processing

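Of the 9 calls on members, all 7 of Dam-lamin B1 against Dam held in every alternative except Gria4 with the replicate block (0.50, adjusted p = 0.0567); of Gria4 and Gria1 with wild-type Kdm5b, the values at equal reads, by Fisher's exact test and by pronucleus number stand beside them above. Counts of called genes depended more on the setting. For Dam-lamin B1 against Dam, 31129 genes and 14474 bins became 19843 and 9281 at equal reads. Between parents without Kdm5b, 211 genes became 127 with a pseudocount of 1, 123 with the replicate block, 30 at equal reads and 0 by Fisher's exact test (3073 at an unadjusted p under 0.05), and 439 bins became 107 with the block, 15 at equal reads and 0 by Fisher's test. With wild-type Kdm5b 6624 became 1982 at equal reads, 1239 by Fisher's test, 3765 without pronuclei 14 to 19 and 348 in those alone, where fewer pronuclei enter. With mutant Kdm5b 182 became 391 with no filter, 0 with the block, 24 at equal reads and 0 by Fisher's test. For wild-type against mutant Kdm5b, 61 in paternal pronuclei became 0 with a pseudocount of 1, the block, equal reads, Fisher's test or without wild-type pronuclei 14 to 19 (4821 at an unadjusted p under 0.05), and 24 with bins covered by at least 50%. In maternal pronuclei 8 became 23 with no filter and 0 in the other settings, and in zygotes 253 became 40 with a pseudocount of 1, 436 with no filter, 49 with half-covered bins and 0 with the block, equal reads or Fisher's test. For aphidicolin 4 became 0 with no filter. The causes were not tested.

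Of the members' values that changed sign, 1 was a call, Gria4 with wild-type Kdm5b, at 0.032 in pronuclei 14 to 19 alone; there Grik1 was 0.11 and Grin2b -0.22. Between parents with wild-type Kdm5b, Grid1 was -0.012 with a pseudocount of 1 and -0.019 at equal reads and -0.099 without pronuclei 14 to 19, and Grin2b -0.11 at equal reads. With mutant Kdm5b, Grik1 was -0.10 at equal reads; Grid1 -0.0061 with a pseudocount of 1, -0.088 at equal reads and -12.8 percentage points of contact; Grin2b -0.075 with the block and -23.1 points; and Grm7 -0.23 with the block. For wild-type against mutant Kdm5b in paternal pronuclei, Gria4 was -6.14 points, Grik1 -3.51 points and Grm7 0.063 with the block; in maternal pronuclei Gria1 was 0.033 with the block, 0.033 without pronuclei 14 to 19 and 2.83 points; in zygotes Gria2 was 0.11 with half-covered bins. Grin2b was -0.011 with the block for Kdm4d, and in the interaction with the block Gria1 was -0.078 and Grin2a -0.067, and without pronuclei 14 to 19 Gria1 was -0.10 and Grin2b 0.061.

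No pairing of same-numbered samples was seen: their deviations correlated between -0.0903 and 0.148, and in no comparison was every pair above 0.1. Sparse profiles of different genomes can correlate weakly even within a zygote, so these values cannot exclude pairing. With wild-type Kdm5b a run of numbers did share a lower LAD contrast in both parents, as given above. The replicate block only shows what a shared number does. Leaving out single replicates in turn was not run, since groups above 5 cells made up every test; the 1 maternal pronucleus that went against its label was left out for all 9 genes, as given above. Depth limits single genes most, with a few reads per gene and cell in the shallow groups.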

Other observations

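GABA-A receptor genes, whose products are the main inhibitory receptors of the brain, were counted in the same way. With Dam-lamin B1 against Dam in zygotes, 8 of 12 were called higher and 2 lower (median 0.85), beside 10.5% of all genes higher and 56.5% lower. Gabrg1 and Gabra6 had differences of 1.06 and 1.04 (limma). Between parents with wild-type Kdm5b, 4 of 12 were called higher in paternal pronuclei and 0 lower, led by Gabra4 (1.01), Gabrd (0.84) and Gabrb1 (0.65). Without the pronuclei numbered 14 to 19, 2 of 12 were called higher and 0 lower. With mutant Kdm5b 1 was called higher, Gabrd, with 1.55 ± 0.699 in paternal and 0.206 ± 0.275 in maternal pronuclei (1.57, limma adjusted p = 0.024). Of the 12 genes, 11 have every bin in both LAD lists.

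The labels of 13 oocytes give both 20 ng and 50 ng, and that of 1 cell of an 8-cell embryo gives both constructs. In these oocytes Gria4 ran from 0.279 over a median of 0.986 to 1.38, and Grin2b from 0.545 over 1.06 to 1.25. In the 8-cell embryo cell Gria4 had 1.08 and Grin2b 1.72.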
